A study of Mus musculus with 6 samples.

Results

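The serotonin receptor probes of a spotted oligonucleotide array for neurotransmission genes were compared between mouse cerebral cortex and thymus. The members were all spots whose printed class was serotonin receptors: 52 of 1568 spots, which made up 26 of the 590 gene oligonucleotides (oligos), with 2 oligos for each of 13 sequence entries and 2 spots for each oligo. Every oligo was kept apart, because oligos of 1 entry report on the same transcript and are not replicates of a condition. Adult B10D2 mice with no treatment named in the labels gave both tissues. Total RNA of 6 cortices was pooled into 1 cortex sample and that of 5 thymi into 1 thymus sample, and 15 µg of a pool was labelled with the dye Cy5 for each of 3 arrays per tissue. The 3 arrays of a tissue were therefore hybridizations of 1 pool, and the p-values below measure the spread between hybridizations, not between animals.

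Serotonin receptors pass the signal of serotonin, a transmitter in brain, gut and blood, into cells. Most are membrane proteins that act through G proteins: the Htr1 and Htr5 groups lower cyclic AMP, the Htr2 group raises intracellular calcium through phospholipase C, and Htr4, Htr6 and Htr7 raise cyclic AMP. The Htr3 proteins differ from all of these, since they assemble into a cation channel that serotonin opens. In the cortex, serotonin arrives through fibres from the raphe nuclei of the brainstem. Serotonin receptors have also been described on lymphoid cells.

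Of the 13 entries, 4 were named by the accession printed with them (Htr1a, Htr2c, Htr6 and Htr7). Another 7 were named by matching their printed name to the RefSeq gene table (Htr1d, Htr2b, Htr3a, Htr3b, Htr4, Htr5a and Htr5b). The match used letters and digits only, and a last p or l was dropped where the full name had no match. Htr2b, Htr4 and Htr5b were printed as 5ht2bp, 5ht4l and 5ht5bp. The other 2 had no such match and kept their printed names, 5ht1e and 5httx. The table lists similar but not identical older names, Htr1eb for Htr1f and 5-HT-X for Htr7, so whether these entries stand for those genes was not settled. The letters of the oligos were not used here.

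The arrays differed in brightness. The net signal of a spot is its median minus that of its local background, in scanner units. The net signal of an oligo is the average over its unflagged spots. Over the single unflagged gene spots the median net signal was 2491, 1763 and 816.5 on the cortex arrays and 913.5, 468 and 583.5 on the thymus arrays. The file headers gave 3 scan settings: the first held cortex 1, cortex 2 and thymus 1, the second, with small spots of 36.5 and 32.5 pixels at the median, held cortex 3 and thymus 2, and the third held thymus 3 alone. Of the neuron markers, 2 of 10 genes (Eno2 and Gad2) were matched to a probe, and 5 of their 6 oligos were higher in cortex. The oligos matched to Gad2 came from entries with unlike printed names, GAD67 and gad65. Whether both entries stand for Gad2 was not settled. No marker of thymocytes, thymic epithelium, astrocytes, myeloid cells or vessels was matched to a probe. The thymus label was therefore not checked against such genes. Matching was by gene symbol and 316 of the 590 oligos had none, so absence from the array was not shown.

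Of the 26 serotonin receptor oligos, 22 gave a signal on at least 1 cortex array and 18 on at least 1 thymus array, but only 8 did so on all 6 arrays. An oligo was above background on an array where most of its unflagged spots exceeded their local background by 2 SD of that background. On the cortex arrays 22, 18 and 14 of the 26 oligos were above background (mean 18 ± 4, SD, n = 3), and on the thymus arrays 17, 12 and 13 were (mean 14 ± 2.65, SD, n = 3). The ranges overlapped. The difference of 4 oligos gave p = 0.2 in a two-sided exact permutation test over the 6 arrays, where 0.1 is the smallest p that 20 splits allow. Over all 590 probes the shares above background were 86.3%, 81% and 71% on the cortex arrays and 66.6%, 45.8% and 47.8% on the thymus arrays. For serotonin receptors they were 84.6%, 69.2% and 53.8% against 65.4%, 46.2% and 50%. Blank spots were above background in 3.17% to 6.67% of cases per array.

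Detection differed between the oligos. Those above background on all 6 arrays were Htr2c oligo 1, Htr3a oligo 2, Htr4 oligo 2, Htr5a oligo 1, Htr5b oligo 1, Htr6 oligo 1, 5ht1e oligo 2 and 5httx oligo 2. Another 5 were above background on cortex arrays only, namely Htr2c oligo 2, Htr4 oligo 1, Htr5a oligo 2, Htr5b oligo 2 and Htr7 oligo 1. Only Htr3a oligo 1 was above background on a thymus array and on no cortex array. Both Htr1d oligos and Htr7 oligo 2 were above background on no array. In bulk RNA, fewer cells that express a receptor and less of its RNA per cell cannot be told apart.

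After scaling, 1 serotonin receptor oligo was higher in cortex and 9 were higher in thymus. Arrays were quantile-scaled on the log2 scale, and limma was run, cortex minus thymus, on the 465 probes that 3 or more of the 6 arrays showed above background, with a threshold of 0.05 on the adjusted p over all of them. Of the 26 members 19 were tested, from 11 entries; Htr1d and the entry named Htr7 had no tested oligo. Across the array 48% of tested probes passed, 24.3% as higher in cortex and 23.7% as higher in thymus. The single cortex call was Htr2c oligo 2. The thymus calls came from 8 entries: both oligos of Htr6 and 1 oligo each of Htr1a, 5ht1e, Htr2b, Htr3b, Htr4, Htr5b and 5httx. The other 9 tested oligos did not pass. The median difference was -0.74 over the 19 oligos and -0.10 over all tested probes. The scaled values of the tissues did not overlap for 12 of the 19 oligos, against 55.7% of all tested probes.

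The thymus calls were differences in standing among the probes of an array, and they depended on the scaling. Without scaling, no serotonin receptor oligo passed as higher in thymus. Then 25.2% of all tested probes were higher in cortex and 0% higher in thymus by limma, with 6 of them and no member below 0 at an unadjusted p under 0.05. The unscaled median was 0.10 over the members and 0.86 over all tested probes. Of the 9 thymus calls, 8 stayed below 0 without scaling and Htr5b oligo 1 was at 0.10. With arrays centred on the printed control and housekeeping genes, Htr3b oligo 2 was the only thymus call left, and the cortex calls were 2; of all tested probes 36.6% passed then, 6.02% as higher in thymus and 30.5% as higher in cortex. Htr2c oligo 2 was higher in cortex under each of these scalings.

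The rank of an oligo by net signal among the gene probes of its own array needs no scaling between arrays. Quantile scaling keeps the order of the log2 values, which largely but not wholly follows net signal. The percentiles are therefore no separate support for the thymus calls. The median percentile of the serotonin receptor oligos was 33.1, 34.6 and 34.1 on the cortex arrays and 49.2, 50 and 57.4 on the thymus arrays, so the class stood higher in the ranking on each thymus array than on any cortex array. Only 45.8% and 47.8% of all probes were above background on thymus 2 and 3, so these middle percentiles lay near the detection limit there. On thymus 2, Htr1a oligo 1 at 50.6 was above background and Htr3b oligo 2 at 58.2 was not. Of the 26 oligos, 18 had a higher median percentile in thymus. The same count was not made over all gene probes, so 18 of 26 cannot be called particular to the class. Dopamine receptor oligos, another class of transmitter receptors, had medians of 28.7, 34.2 and 32.5 in cortex and 42.3, 39.9 and 42.2 in thymus. For adrenergic receptors the medians were 33.6, 38.1 and 32.1 in cortex and 48.4, 50.9 and 46.6 in thymus. The higher standing in thymus was thus seen in all 3 classes, and no difference between the classes was tested. In the quantile-scaled fit, 1 of 9 tested dopamine receptor oligos was higher in cortex and 4 were higher in thymus, and 0 and 5 of 11 tested adrenergic receptor oligos were.

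Htr2c, a receptor of the calcium-raising group that is abundant in choroid plexus and present in cortical neurons, gave the largest difference of the class, through 1 of its oligos. Htr2c oligo 2 had net signals of 7050, 5060.5 and 1054.5 on the cortex arrays and -239.5, -46.5 and -94.25 on the thymus arrays. All cortex arrays were high and all thymus arrays were at or under background, with no overlap. On the scaled log2 scale cortex exceeded thymus by 3.92 ± 0.41 (SE), with an adjusted p of 1.93e-06. This size depended on the background correction, which the SE does not cover. It was 4.34 with the offset of the correction at 16 in place of 50, 6.11 with no correction and 9.40 with background subtracted. No thymus array measured oligo 2 above background. The signal in cortex was therefore given as at least 2.88-fold higher. That bound set the mean of the cortex values against the lowest signals above background on the thymus arrays. Htr2c oligo 1 had net signals of 35440, 40765 and 14243 in cortex and 52733, 28104 and 25302.5 in thymus. It was bright on all 6 arrays and its net signals overlapped, with a scaled difference of -0.74 ± 0.35 (SE) and an adjusted p of 0.0972. With arrays centred on their median it passed as higher in thymus, at -1.30 (adjusted p = 0.00570).

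The difference between the tissues was not the same for the 2 Htr2c oligos. The log2 ratio of oligo 1 to oligo 2 within each array changed between the tissues by -4.66 ± 0.51 (SE, adjusted p = 1.70e-06 over 185 entries). Oligo 2 reached the filter through its cortex arrays alone and was at or under background in thymus. The size of the change therefore rested on the background correction. It was -6.86 with no correction and -10.1 with background subtracted. This test of oligo pairs was chosen after the data were seen. Oligo 1 lay at percentiles 97.2 to 98.4 of the gene probes on the cortex arrays and 98.8 to 99.1 on the thymus arrays. Oligo 2 lay between 59.4 and 77.1 on the cortex arrays and between 0.172 and 5.94 on the thymus arrays. Without any 1 cortex array oligo 2 fell under the filter of 3 arrays above background and was not tested; with the filter dropped as well, its difference was 3.67 to 4.19 and passed each time. The promoter of Htr2c is shown because this gene carried the cortex call. In the RefSeq promoter table of GRCm38.p6 it is chrX:146962263-146962562 on the plus strand, 250 bases before to 50 after the start that this table gives, which lies inside the gene interval of the gene table of the same build. It was without a match on either strand to TATAAA or GGGCGG, motifs found in 13.6% and 35.7% of the 32851 promoters of the table.
Htr2c promoter: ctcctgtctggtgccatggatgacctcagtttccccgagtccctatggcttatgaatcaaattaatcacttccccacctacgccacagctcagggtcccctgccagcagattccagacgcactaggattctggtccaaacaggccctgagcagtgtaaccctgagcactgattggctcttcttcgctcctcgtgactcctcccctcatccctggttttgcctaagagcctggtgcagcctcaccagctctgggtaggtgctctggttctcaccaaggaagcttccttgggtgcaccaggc

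Htr2b, the receptor of the same group known from heart valves and gut, had 1 oligo higher in thymus. Htr2b oligo 1 had net signals of 966.5, 965 and 424 in cortex and 1279 and 799 on thymus arrays 1 and 2. On thymus 3 both of its spots carried the bad-spot mark, so the fit had 2 thymus values, and the net signals overlapped. The scaled difference was -1.41 ± 0.40 (SE; adjusted p = 0.00802), and without cortex 1 the adjusted p was 0.0514. Htr2b oligo 2 had net signals of 3201.5, 1484 and 1112 in cortex and 2864, 441.5 and 993.5 in thymus. These overlapped, and the scaled difference of -0.53 ± 0.39 (SE) did not pass (adjusted p = 0.29).

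Htr3a and Htr3b encode subunits of the serotonin-gated channel. Htr3a, the subunit that can form the channel alone, had net signals at oligo 2 of 18066, 13795.5 and 2781 in cortex and 13726.5, 2448 and 4501 in thymus. The arrays of both tissues covered the same range, and the scaled difference was -0.18 ± 0.42 (SE; adjusted p = 0.764). At Htr3a oligo 1 the net signals were -9.5, -118 and 93.25 in cortex and 160, 2267 and 20.25 in thymus. Only thymus 2 was above background there, with 2054 and 2480.5 at its 2 spots. Htr3a oligo 1 was not tested, and no other array repeated that signal.

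Htr3b, the subunit that joins Htr3a in mixed channels, had the largest difference toward thymus. Htr3b oligo 2 had net signals of 476, 353.5 and 51.5 in cortex and 961, 610 and 999 in thymus. Each thymus array was above each cortex array, and this was the only one of the 9 thymus calls without overlap in unscaled net signal. The oligo was dim, above background on 1 cortex array and on 2 thymus arrays. The scaled difference was -2.18 ± 0.35 (SE; adjusted p = 0.000108). It was -1.78 ± 0.48 (SE; adjusted p = 0.000938) with arrays centred on control genes and -1.39 ± 0.73 (SE; adjusted p = 0.162) without scaling. With the filter dropped it passed without each array in turn, at -2.38 to -1.98. Htr3b oligo 1 had net signals of 3065, 2305 and 264 in cortex and 1474, 203 and 502 in thymus. It overlapped between tissues, with a scaled difference of -0.17 ± 0.43 (SE; adjusted p = 0.792). The ratio of oligo 1 to oligo 2 differed between the tissues by 2.01 ± 0.52 (SE; adjusted p = 0.00662), and the adjusted p was 0.0542 without cortex 2, and 0.0974 without cortex 1 with the filter dropped.

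Htr6, a receptor that raises cyclic AMP and is known mainly from striatum, cortex and hippocampus, was the only entry with both oligos past the threshold. Htr6 oligo 1 had net signals of 2790.5, 1553 and 1021.5 in cortex and 3593, 1066 and 1728 in thymus. Htr6 oligo 2 had net signals of 1050.5, 690 and 98 in cortex and 1217, 603 and 751.5 in thymus. Both overlapped between tissues in net signal. After scaling the tissues separated, with log2 means of 10.32 ± 0.23 against 11.61 ± 0.34 (SD, n = 3 each) at oligo 1 and 8.98 ± 0.30 against 10.50 ± 0.08 at oligo 2. The scaled differences were -1.29 ± 0.36 (SE; adjusted p = 0.00666) at oligo 1 and -1.51 ± 0.35 (SE; adjusted p = 0.00191) at oligo 2. Both passed without each array in turn; with the filter dropped too, oligo 1 had an adjusted p of 0.0523 without cortex 2. The change of their ratio between the tissues was 0.22 ± 0.47 (SE; adjusted p = 0.737), with a 95% interval from -0.76 to 1.20.

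Without scaling the Htr6 differences were -0.21 (adjusted p = 0.878) at oligo 1 and -0.71 (adjusted p = 0.530) at oligo 2, and neither passed. Quantile scaling largely keeps the rank of an oligo within its array. By this rank, oligo 1 stood at percentiles 52.8, 44.8 and 57.7 on the cortex arrays and 82.1, 71.6 and 79.3 on the thymus arrays. Oligo 2 stood at 24.8, 23.7 and 13.8 in cortex and 57.6, 57.4 and 57.4 in thymus. On cortex 3 and thymus 3 it was not above background. The Htr6 promoter is shown because Htr6 was the entry whose oligos passed together. It is chr4:139075521-139075820 on the minus strand in the RefSeq promoter table of GRCm38.p6, taken at the first of 2 starts listed. It held 3 matches to GGGCGG over both strands (capitals, 2 of them sharing 1 base) and none to TATAAA. Its GC content was 71%, with 29 CpG pairs, against medians of 52.7% and 7 over all promoters of the table; the Htr2c promoter had 56.3% and 5.
Htr6 promoter: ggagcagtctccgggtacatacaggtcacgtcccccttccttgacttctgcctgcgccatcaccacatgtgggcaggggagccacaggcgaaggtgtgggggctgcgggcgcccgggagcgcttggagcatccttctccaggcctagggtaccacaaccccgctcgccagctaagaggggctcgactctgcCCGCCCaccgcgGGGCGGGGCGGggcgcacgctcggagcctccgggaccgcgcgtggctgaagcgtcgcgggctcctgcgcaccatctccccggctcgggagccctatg

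Htr4, which also raises cyclic AMP and is known from gut and forebrain, had 1 bright and 1 dim oligo. Htr4 oligo 2 had net signals of 2437, 1431 and 922 in cortex and 2305.5, 1356 and 2616 in thymus. The tissues overlapped in net signal and separated after scaling, with a difference of -1.42 ± 0.36 (SE; adjusted p = 0.00395) that passed without each array in turn. Htr4 oligo 1 had net signals of 700.5, 296 and 147 in cortex and -111, -195 and 5.25 in thymus. All cortex arrays were above all thymus arrays there, but only cortex 1 was above background and the oligo was not tested. With the filter dropped, the ratio of oligo 1 to oligo 2 differed between the tissues by 2.37 ± 0.43 (SE, adjusted p = 0.00495). That size rests on dim values, since oligo 1 was above background on no thymus array. Htr7, the third receptor that raises cyclic AMP, had no tested oligo in the entry matched to it by accession. Htr7 oligo 1 was above background on cortex 1 alone, at 737, and ranged from -216 to 361 on the other arrays. Htr7 oligo 2 ranged from 25.75 to 297 and was above background on no array.

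Among the receptors that lower cyclic AMP, Htr1a, an autoreceptor on raphe neurons and a receptor of cortical neurons, was above background on some arrays of both tissues. Htr1a oligo 1 had net signals of 1947, 564 and 614 in cortex and 686.5, 469.5 and 770 in thymus. Htr1a oligo 2 had 797, 1143 and 199 in cortex and 1097.5, 391 and 635.5 in thymus. Both overlapped between tissues in net signal, and oligo 2 was above background on 3 of the 6 arrays, 2 of cortex and 1 of thymus. The scaled difference was -0.64 ± 0.38 (SE; adjusted p = 0.184) at oligo 1 and -1.16 ± 0.36 (SE; adjusted p = 0.0139) at oligo 2. At oligo 2 the adjusted p was 0.0621 without cortex 3, and the oligo fell under the filter without cortex 1, cortex 2 or thymus 1. Htr1d, an autoreceptor on serotonin terminals, ranged from -183 to 176 at oligo 1 and from -98 to 155.5 at oligo 2, with no array above background.

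The entry printed as 5ht1e had a bright oligo whose cortex arrays differed widely. 5ht1e oligo 2 had net signals of 19026.5, 2468 and 4540 in cortex and 11056, 5846 and 11156 in thymus. Cortex 1 was the brightest and cortex 2 the dimmest of the 6 arrays. After scaling the difference was -1.43 ± 0.53 (SE, adjusted p = 0.0342). It was -0.61 without cortex 2 (adjusted p = 0.31), and the adjusted p was 0.0516 without thymus 1 and 0.0815 without thymus 3. The call was also lost with no background correction (adjusted p = 0.120), background subtracted (0.146) and scan setting as a block (0.253). With no filter and with marked spots kept it was lost at 0.0634 and 0.0526. It held with spot means (0.0290), the replicate block (0.00264) and centring on array medians (0.00850). 5ht1e oligo 1 had net signals of 1923, 1442.5 and 813.5 in cortex and 828, 286 and 582.5 in thymus. The lowest cortex value lay just under the highest thymus value, and the scaled difference was -0.03 ± 0.35 (SE; adjusted p = 0.953).

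Htr5a and Htr5b form a group of their own, and Htr5b is expressed in rodents while the human gene is disrupted. Htr5a oligo 1 had net signals of 3468, 3254 and 1112 in cortex and 2375.5, 1526.5 and 1669 in thymus. It overlapped between tissues in net signal, with a scaled difference of -0.71 ± 0.34 (SE; adjusted p = 0.1). Htr5a oligo 2 was above background on cortex 1 and 2, at 508.5 and 1470.5, and lay between -72.5 and 308 on the other 4 arrays. It was not tested.

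Of the 2 oligos of Htr5b, 1 was higher in thymus after scaling and the other did not pass. Htr5b oligo 1 had net signals of 2219, 1219 and 827 in cortex and 1648, 690.5 and 1313 in thymus. Htr5b oligo 2 had 622, 527 and 602 in cortex and 45.25, -111 and 212 in thymus. Oligo 1 overlapped between tissues, whereas oligo 2 was above background on all cortex arrays and on no thymus array. The scaled difference was -0.91 ± 0.35 (SE; adjusted p = 0.0411) at oligo 1, which passed without thymus 2 and missed the threshold without any other array (adjusted p from 0.0551 to 0.143). At oligo 2 it was 0.83 ± 0.46 (SE; adjusted p = 0.148), and it passed at 1.40 without thymus 3 (adjusted p = 0.0101) and at 1.22 with arrays centred on control genes (adjusted p = 0.0309). Without scaling both were above 0, at 0.10 (adjusted p = 0.942) and 1.61 (adjusted p = 0.0939). The ratio of the oligos differed between tissues by -1.75 ± 0.49 (SE, adjusted p = 0.0101). The adjusted p was 0.0518 without thymus 2, and 0.114 and 0.121 without cortex 2 or 3 with the filter dropped. Oligo 2 reached the filter through its cortex arrays alone. With background subtracted the ratio differed by -4.51 and did not pass (adjusted p = 0.188).

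The entry printed as 5httx had 1 oligo higher in thymus after scaling. 5httx oligo 1 had net signals of 842, 689.5 and 342 in cortex and 889, 378 and 832 in thymus. 5httx oligo 2 had 1864, 536 and 779 in cortex and 764, 513 and 772.5 in thymus. Both overlapped between tissues in net signal. Oligo 1 passed at a scaled difference of -1.17 ± 0.35 (SE; adjusted p = 0.0105), with an adjusted p of 0.0638 without cortex 1. Oligo 2, at -0.67 ± 0.39 (SE; adjusted p = 0.175), did not pass.

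Over the class, both oligos were tested for 8 entries, and for 3 of them (Htr2c, Htr3b and Htr5b) the oligos differed from each other in their tissue difference. The same test passed for 26.5% of the 185 entries with both oligos tested. Without scaling 4 of the 8 entries passed, with 5ht1e as the fourth (adjusted p = 0.0332). Htr1a, Htr2b, 5httx and Htr6 did not pass under either scaling.

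The direction of the thymus calls was the same in both scan settings that held the 2 tissues. All 9 were below 0 between cortex 1 and 2 and thymus 1 in the first setting, and all 9 between cortex 3 and thymus 2 in the second. The 9 had been chosen by the fit on these same arrays, so the shared sign is no separate support for them. Htr2c oligo 2 differed by 4.92 in the first setting and by 2.59 in the second, on the scaled log2 scale and with no test within a setting. Cortex 1 and thymus 1 also shared a scan day; between these 2 arrays the 9 thymus calls differed by -1.89 to -0.025 and Htr2c oligo 2 by 4.94. With the scan setting as a block, 7 oligos were higher in thymus and 2 in cortex, the added one being Htr5b oligo 2. The thymus calls lost were 5ht1e oligo 2 (adjusted p = 0.253) and Htr5b oligo 1 (adjusted p = 0.0749). Only 4 of the 9 oligos higher in thymus were above background on all 3 thymus arrays, namely Htr6 oligo 1, Htr4 oligo 2, 5ht1e oligo 2 and Htr5b oligo 1.

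By gene symbol, 31 other genes of serotonin synthesis, transport, breakdown and signalling were looked for. Only Tph1, the enzyme that starts serotonin synthesis outside the brain, was matched to a probe. As 316 of the 590 oligos had no symbol, absence of the others from the array was not shown. None of the 4 Tph1 oligos was tested. Tph1 oligo 2 was above background on thymus 1, at 1260, and had net signals of 328, 235 and 2.5 in cortex and 263.5 and 637.5 on thymus 2 and 3; its other 3 oligos were above background on no array. Among the markers of other cell types, Pax5, the factor that sets B cell identity, was the only 1 of 4 B cell genes matched to a probe. At oligo 2 it was higher in thymus, with net signals of 818, 314 and 96.75 in cortex and 1719, 1174 and 924 in thymus. The scaled difference was -2.33 ± 0.35 (SE, adjusted p = 5.17e-05). Pax5 oligo 1 did not pass (-0.30 ± 0.37, SE, adjusted p = 0.543). The part of B cells in the thymus values was not tested. Mbp, a myelin gene, was the only 1 of 4 oligodendrocyte genes matched to a probe. Mbp was higher in cortex at oligo 1 (3.66 ± 0.41, SE, adjusted p = 4.58e-06) and higher in thymus at oligo 2 (-1.44 ± 0.36, SE, adjusted p = 0.00347). Without scaling Mbp oligo 2 did not pass (-0.44, adjusted p = 0.727).

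The probes outside the class whose centred log2 profile over the 6 arrays lay closest to that of Htr2c oligo 2 were found by root mean square distance over 422 probes. They were Kcnd2 oligo 2, a potassium channel (0.377), Adcyap1r1 oligo 2, the receptor of a neuropeptide (0.407), and oligo 2 of a GABA-A receptor entry printed as a4p (0.546), where the median distance of all probes was 2.10. All 3 were above background on each cortex array and on no thymus array. Htr2c oligo 2 had this pattern too, so it follows largely from choosing probes by their distance to its profile. For Htr3b oligo 2 the closest were oligo 1 of a control entry printed as lamr1.1 (0.215), Kcna7 oligo 1, a potassium channel (0.229), and oligo 1 of an entry printed as kir2.4.rat (0.252), against a median of 1.16.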

How the data were processed

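Spot intensities of 6 single-colour arrays were used as deposited, on the linear scale of the scanner and without normalization; per the file headers, spots were segmented automatically with a local background. The bad-spot mark is another value deposited in those files. The sources used here do not name the quantification program. Foreground medians were corrected with normexp (offset 50) in limma 3.58.1 under R 4.3.3, with every spot in that fit. After removal of flagged and non-gene spots, log2 values were averaged per oligo and quantile-scaled. The fit (lmFit and eBayes, two-sided) took oligos above background (2 SD) on 3 or more arrays and measured on 2 or more per tissue, with Benjamini-Hochberg adjustment over all 465 tested probes. Counts above background were compared with an exact permutation test. The procedure was also tested on simulated data. Python 3.11.15 read the files.

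The members and lists were chosen with earlier results of these data known. Oligos past the threshold, their partners and oligos above background on all arrays of a tissue are given with every array; the 3 probes most like the largest difference in each direction are named. Gene names rest on RefSeq's table for GRCm38.p6. The series value table of the authors, in intensity units, covers 20 probes and no member, and was not used. The number of arrays limits the precision. Replicate numbers did not pair the arrays: deviations from the tissue means of same-numbered arrays correlated at 0.17, -0.09 and 0.01. Alternatives varied background correction, scaling, filter, spot summary, flags, blocks and the arrays used.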

Additional observations from a re-analysis of the deposited data

Results flagged for a closer look

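Of 312 readings of serotonin receptor spots, 10 carried the bad-spot mark and were left out, and 7 of these exceeded both their own background limit and the blank spots of their array. They lay outside the values compared above. Their net signals were 991 for Htr1a oligo 2 and 585.5 for Htr5a oligo 2 on cortex 2, and 1310.5 for 5ht1e oligo 1 on cortex 3. On thymus 2 they were 3162 for Htr1a oligo 1, where the unmarked spot read 469.5, and 1367.5 for Htr3b oligo 1, where it read 203. On thymus 3 both spots of Htr2b oligo 1 were marked, at 888 and 2376, which left that array without a value for it. With marked spots kept, 8 oligos were higher in thymus and 1 in cortex. No serotonin receptor spot was saturated.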

How the results depend on the processing

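Calls of Htr2c oligo 2 held in each setting that tested it. Depth of signal limits the dim oligos, since 7 of 26 were not tested. Against 223 probes past the threshold, with 1 and 9 serotonin receptor oligos higher in cortex and thymus, a median of -0.74 and 3 entries with unlike oligos, no scaling gave 117 probes, 0 thymus calls and a median of 0.10. Without scaling the sign also turned for Htr1a oligo 1 (0.32), 5ht1e oligo 1 (0.97), Htr2b oligo 2 (0.48), Htr3a oligo 2 (0.65), Htr3b oligo 1 (0.77), Htr5a oligo 1 (0.31), Htr5b oligo 1 (0.10) and 5httx oligo 2 (0.29). Centring on control genes gave 2 cortex calls, 1 thymus call and a median of -0.29, and turned 5ht1e oligo 1 (0.58), Htr2b oligo 2 (0.093), Htr3a oligo 2 (0.26) and Htr3b oligo 1 (0.39). None of the turned oligos except Htr5b oligo 1 had passed. 5ht1e oligo 1 also turned with spot means (0.077), marked spots kept (0.055) and scan setting as a block (0.082), where cortex calls were 2. Centring on array medians gave 10 thymus calls, with Htr2c oligo 1 added (-1.30). No filter gave 5 entries with unlike oligos, Htr4 and Htr7 being the added ones. A filter of all 3 arrays of a tissue gave 5 thymus calls, and fewer oligos were tested under it. The cause of the shifts with scaling was not tested.

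Without 1 array, 111 to 219 probes passed, with 0 to 2 cortex calls, 4 to 8 thymus calls, 0 to 2 entries with unlike oligos (against 3 with all arrays) and medians from -1.02 to -0.70. Without a cortex array Htr2c oligo 2 fell under the filter. With the filter dropped too, cortex calls were 1 to 3, thymus calls 5 to 9 and entries 2 to 4. Without 1 array the difference ranged from -0.14 to 0.071 for 5ht1e oligo 1 (0.035 without cortex 1, 0.0043 without cortex 2, 0.071 without thymus 3), from -0.49 to 0.20 for Htr3a oligo 2 and from -0.44 to 0.33 for Htr3b oligo 1; the latter pair was above 0 without cortex 3 (0.20 and 0.33) and without thymus 1 (0.10 and 0.12). Without both arrays of the second scan setting, chosen after seeing the data, 110 probes passed, with 0 cortex calls, 5 thymus calls and 0 entries, and Htr3b oligo 1 was at 0.060. The difference in oligos above background was 2 to 6 without 1 array and 3 to 5 otherwise, with p from 0.2 to 0.5. With the replicate block, 210 probes passed, with 1 cortex and 8 thymus calls; the numbers mark no stated pairing, though the arrays numbered 1 shared a scan day and setting. The series value table holds no member and was not run.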
